A study of Mus musculus with 2 samples.

Results

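The HOX genes of the 4 clusters were described in LSK cells. This bone marrow fraction, negative for lineage markers and positive for Sca-1 and c-Kit, contains the blood stem cells and multipotent progenitors. A gene was taken as a member when its name in both deposited array files was Hox, a letter from a to d and a number. This gave 38 of the 27597 genes on the array design, read by 50 probes. The labels give 2 groups, LSK cells of wild-type mice and LSK cells of PAD4-deficient (PAD4-/-) mice, both of the C57BL/6 strain, with 1 array each and no treatment. The PAD4-deficient allele, the age and sex of the mice and whether RNA of several mice was pooled are not stated in the labels. With 1 array per group, no difference has a replicate check and no test was possible. Each error given with a difference is the scanner's own error for the spots and does not hold the variation between mice.

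HOX genes encode homeodomain transcription factors that set position along the body axis in the embryo. In each cluster the genes lie in the order of their paralogue positions, from the early, anterior genes with low numbers to the late, posterior genes with high numbers. In blood formation, genes of the A and B clusters are known to be used in primitive cells and to be switched off as cells mature, with Hoxa9 and its cofactor Meis1 studied most, also in leukaemia. Trithorax proteins such as MLL, encoded by Kmt2a, keep HOX chromatin active, and polycomb complexes keep it silent. PAD4 is the enzyme made from Padi4, and it turns protein arginines, among them those of histones, into citrulline. The labels state the aim of the series as finding genes that PAD4 deficiency affects in these cells.

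The 5′ end of the HOX A cluster is shown in sequence because Hoxa11 and Hoxa13 there were not well above background on either array. Hoxa9 was on both arrays, and Hoxa10 was on the PAD4-deficient array, with its wild-type spot flagged. Each line gives the 250 bases before an annotated transcription start, 5′ to 3′ on the minus strand, from RefSeq on GRCm38.p6, with CG dinucleotides in capitals. The windows are chr6:52227371-52227620 for Hoxa9, chr6:52234940-52235189 and chr6:52240855-52241104 for the 2 starts of Hoxa10, chr6:52245811-52246060 for Hoxa11 and chr6:52260881-52261130 for Hoxa13.
Hoxa9: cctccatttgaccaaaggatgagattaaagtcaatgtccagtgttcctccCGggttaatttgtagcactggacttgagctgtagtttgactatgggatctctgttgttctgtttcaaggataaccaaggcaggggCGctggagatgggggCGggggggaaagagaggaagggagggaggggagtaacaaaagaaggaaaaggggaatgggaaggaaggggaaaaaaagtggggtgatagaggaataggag
Hoxa10, start nearer to Hoxa9: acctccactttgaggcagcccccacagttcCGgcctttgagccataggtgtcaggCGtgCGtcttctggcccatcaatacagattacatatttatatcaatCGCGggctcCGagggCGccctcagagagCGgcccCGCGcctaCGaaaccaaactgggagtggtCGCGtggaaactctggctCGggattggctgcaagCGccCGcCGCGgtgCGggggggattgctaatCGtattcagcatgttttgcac
Hoxa10, start nearer to Hoxa11: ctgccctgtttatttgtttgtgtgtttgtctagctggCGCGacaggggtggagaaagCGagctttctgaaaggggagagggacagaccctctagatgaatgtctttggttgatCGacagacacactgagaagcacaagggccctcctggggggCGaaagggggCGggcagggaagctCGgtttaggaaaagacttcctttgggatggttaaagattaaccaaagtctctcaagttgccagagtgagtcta
Hoxa11: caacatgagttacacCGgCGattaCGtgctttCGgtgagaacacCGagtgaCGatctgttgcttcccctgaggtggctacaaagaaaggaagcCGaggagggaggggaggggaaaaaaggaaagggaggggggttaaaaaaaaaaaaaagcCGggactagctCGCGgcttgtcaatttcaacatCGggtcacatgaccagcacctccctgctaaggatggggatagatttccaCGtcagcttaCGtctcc
Hoxa13: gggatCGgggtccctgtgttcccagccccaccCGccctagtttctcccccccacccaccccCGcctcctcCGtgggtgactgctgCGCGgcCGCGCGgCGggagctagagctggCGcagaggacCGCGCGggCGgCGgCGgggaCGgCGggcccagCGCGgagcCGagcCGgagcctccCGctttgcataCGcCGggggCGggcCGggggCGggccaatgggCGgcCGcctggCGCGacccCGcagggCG
The Hoxa9 window held 3 CG dinucleotides, the Hoxa10 windows 20 and 7, the Hoxa11 window 13 and the Hoxa13 window 35. The median over 32851 promoter windows of the same length was 6. On either strand, none of these 5 windows contained TGATNNAT, the letters that PBX and HOX proteins bind together and that 7.68% of all windows held. TTTATNG, the letters of posterior HOX and CDX proteins, and TGACAG, those of MEIS proteins, were also not among their letters, against 9.81% and 15.9% of all windows. Only 22 of the 38 HOX genes (57.9%) had a window in the table, so no property was compared over the whole set.

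The arrays were alike in reach and brightness. Of 41174 probes, 63.9% (wild-type) and 64.1% (PAD4-deficient) were well above background, where this term is the scanner software's own call against the local background. The 75th percentile of the processed signal, a background-subtracted brightness on a linear scale, was 814 and 787. The dimmest probes with that call had signals of 17.7 and 18.5. Padi4, the targeted gene, had a signal of 12879 in wild-type and 2670 in PAD4-deficient cells, which differ by -2.22 on the log2 scale (error 0.20). Its other probes, also well above background on both arrays, differed by -2.05 and -2.24. Whether any Padi4 probe lies in the deleted part of the gene is not stated in the labels. The sorting markers were present on both arrays: Kit, which encodes c-Kit, had signals of 9339 and 9451, and Ly6a, which encodes Sca-1, had signals of 2637 and 2312. The arrays also differed in sex-linked transcripts: Xist, transcribed from the inactive X chromosome, had signals of 3.93 and 16255. The Y-linked genes Ddx3y, with signals of 3455 and 1297, and Eif2s3y, with 2611 and 1076, were well above background on both arrays. The part of these differences in the values below was not tested.

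The HOX genes detected in LSK cells lay mainly in clusters A and B. On the wild-type array, 16 of the 37 HOX genes with an unflagged spot (43.2%) were well above background, against 63.6% of all genes. On the PAD4-deficient array, 19 of 38 (50%) were, against 64.0% of all genes. The same 16 genes were well above background on both arrays. Hoxc6 and Hoxd3 passed only with PAD4-deficient cells, and Hoxa10 had its wild-type spot flagged. The other 19 genes were not well above background on either array, with signals of 3.54 to 15.1 on the wild-type array and 3.71 to 16.2 on the PAD4-deficient array. For 8 of these 19, the scanner software had replaced the signal by a floor on both arrays.

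**Figure D1:**
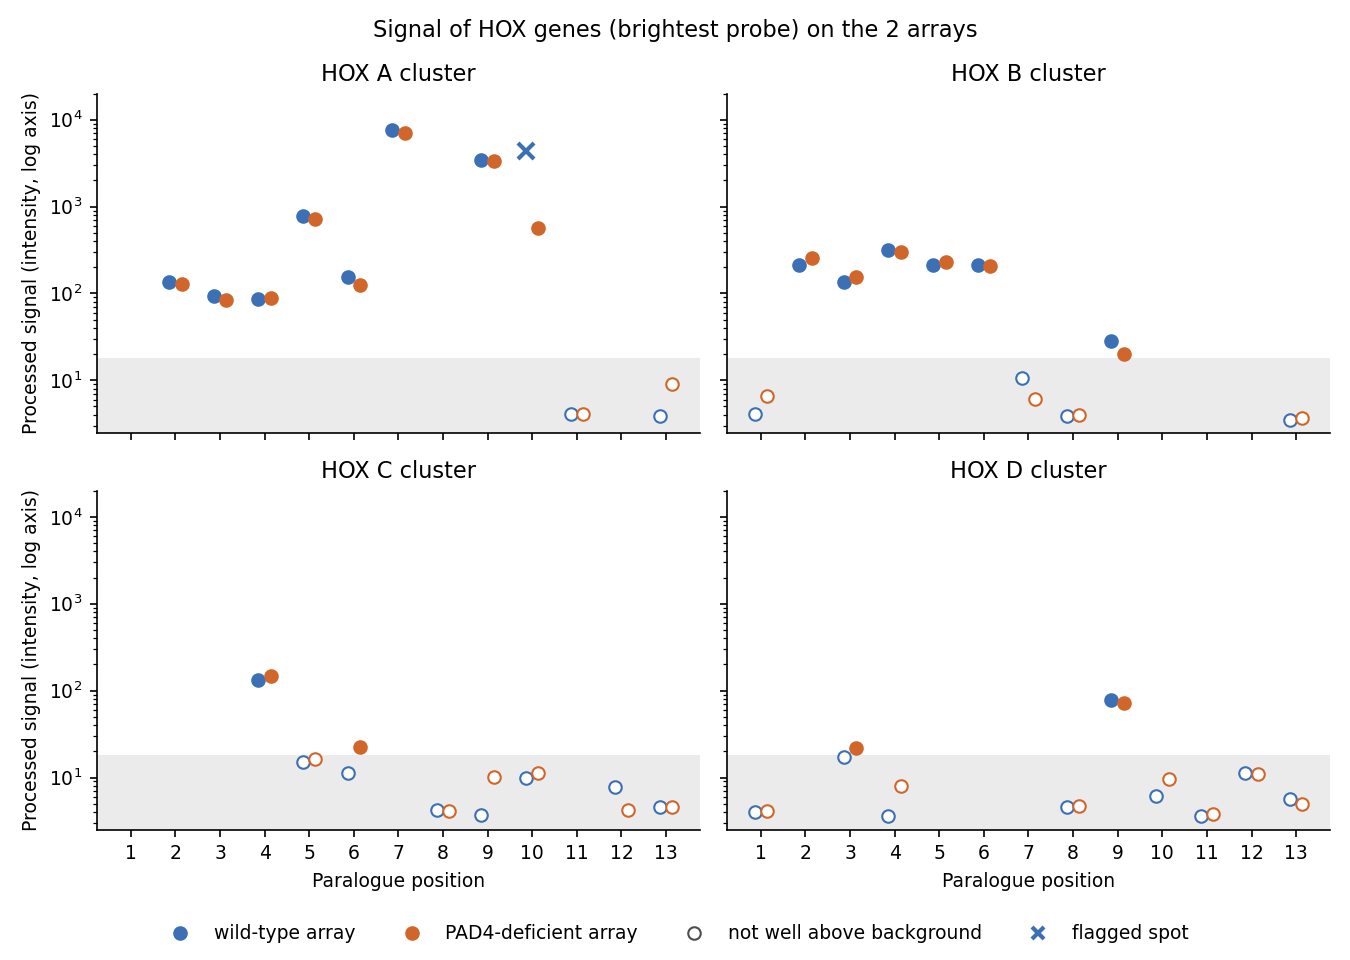
Processed signal (intensity, log axis) of the brightest probe of the HOX genes reported against its paralogue position, in 1 panel per cluster, on the wild-type array (blue) and the PAD4-deficient array (orange). Open circles are probes not well above background, the grey band ends at the dimmest signal called well above background, and the cross is the flagged wild-type spot of Hoxa10. Of the genes plotted, the filled points of cluster A run up to position 10, those of cluster B from 2 to 6 with position 9, and in clusters C and D 2 genes each have a filled point.

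The signal of a probe depends on its own sequence as well as on the amount of RNA, so signals are given for each gene and set only against the 75th percentile and the background of the same array. In bulk RNA, fewer expressing cells and less RNA per cell also cannot be told apart. Within those limits, HOX A was the cluster detected most, with 8 of 11 genes well above background on both arrays. Over all genes, 17021 of 27597 were. The 11 genes hold Hoxa10, whose flagged wild-type spot allowed no call. Its probes lie on chromosome 6 and read transcripts of the minus strand.

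Among the HOX genes with unflagged spots on both arrays, Hoxa7 and Hoxa9 had signals above the 75th percentile of the array, and no other gene did. Hoxa7 had signals of 7580 (wild-type) and 7062 (PAD4-deficient), a log2 difference of -0.05 (error 0.20). Hoxa9, a factor that drives self-renewal of blood progenitors, had signals of 3434 and 3365, a difference of 0.02 with an error of 0.20. Neither difference exceeded its scanner error. Hoxa5 lay just under the 75th percentile, with 786 and 710 in signal and a difference of -0.10 with an error of 0.20.

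The anterior A genes named here lay between background and the 75th percentile. Hoxa2, whose product patterns the hindbrain, had signals of 135 and 129 and a difference of -0.01 with an error of 0.21. Hoxa3, needed for the thymus and neck glands, had signals of 93.0 and 83.6 and a difference of -0.10 with an error of 0.22. Neither difference exceeded its error. Hoxa4 had signals of 86.9 and 89.4, a difference of 0.09 with an error of 0.22. Hoxa6 had signals of 153 and 125, a difference of -0.24 with an error of 0.21, the only A gene past its scanner error. Hoxa11 and Hoxa13, which pattern limbs and the urogenital tract, were not well above background on either array, with signals of 4.07 and 4.10 for Hoxa11 and of 3.94 and 9.06 for Hoxa13.

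Hoxa10, the posterior A gene known from blood progenitors, was read by 1 probe in 1 spot (mm8, chr6:52161240-52161299), and this spot was flagged on the wild-type array as not uniform. Only 2 spots that are not controls had this flag on that array. The mean over its 63 pixels was 4192, the median 685 and the SD 6373, so the mean was 6.12 times the median. Of all 43379 spots, this was the highest such ratio on the wild-type array, where the median ratio was 1.01. On the PAD4-deficient array the same probe had a pixel mean of 607, a median of 604 and an SD of 108 over 64 pixels, a ratio of 1.01.

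The difference of Hoxa10 between the genotypes therefore depended on which value of that spot was used. By the processed signal, which follows the pixel mean, Hoxa10 had 4301 in wild-type and 570 in PAD4-deficient cells, a log2 difference of -2.87, or 7.30-fold lower in PAD4-deficient cells. The authors' deposited value table carries the same spot, with 2.40 and -0.47 and a difference of -2.87. By the pixel median, the signals were 646 and 566 and the difference was -0.14. Only the PAD4-deficient value of Hoxa10 enters the counts. Normexp background correction, which also starts from the pixel mean, gave -2.75.

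**Figure D2:**
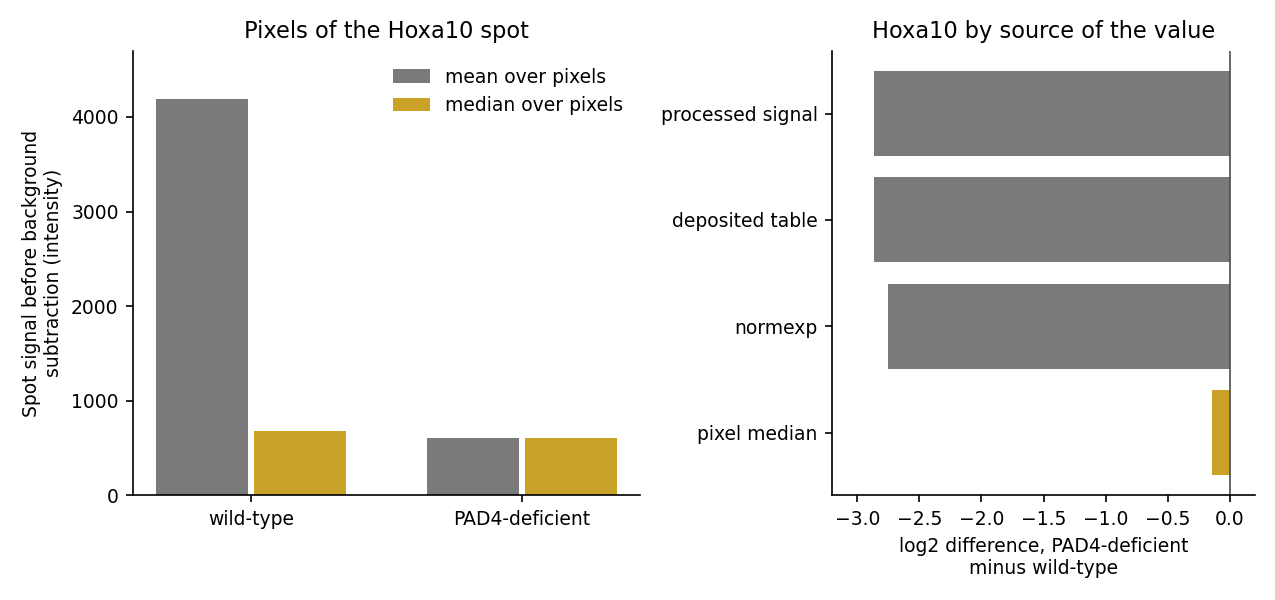
Left, spot signal of Hoxa10 before background subtraction (intensity, linear axis from 0) on each array, as the mean and as the median over the pixels of its 1 spot. Right, log2 difference of Hoxa10, PAD4-deficient minus wild-type, by 4 sources of the value, all with the flagged spot included. The wild-type mean of 4192 stands over a median of 685, and the difference is -2.87 by the processed signal and -0.14 by the pixel median.

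Cluster B was detected in its anterior and central genes. Its probes cover 171 kb of chromosome 11 (mm8, chr11:96012144-96183286), and 6 of its 10 genes were well above background on both arrays: Hoxb2 to Hoxb6 without a gap, and Hoxb9. That count lies near the share over all genes, 17021 of 27597. Hoxb4, whose product expands blood stem cells when raised in culture, had signals of 317 (wild-type) and 303 (PAD4-deficient), a difference of -0.02 with an error of 0.21. Hoxb5, used as a marker of long-term stem cells, had signals of 215 and 229 and a difference of 0.14 with an error of 0.21. Hoxb6 had signals of 210 and 206 and a difference of 0.02 with an error of 0.21. By their brightest probes, these 3 genes did not differ beyond scanner error.

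Hoxb2, Hoxb3 and Hoxb9 were past their scanner error but under 1.5-fold. Hoxb2 had signals of 212 and 254 and a difference of 0.31 with an error of 0.21, the highest of the set. Hoxb3 had signals of 134 and 154 and a difference of 0.24 with an error of 0.21. Hoxb9 had signals of 28.3 and 20.3, close to background, and a difference of -0.43 with an error of 0.40, the lowest of the set. Of the 4 other B genes, Hoxb1 was printed in 10 spots and still was not well above background, with signals of 4.07 and 6.59. Hoxb7, Hoxb8 and Hoxb13 had signals of 3.54 to 10.6 on the wild-type array and 3.71 to 6.10 on the PAD4-deficient array.

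Clusters C and D had 1 gene each above background on both arrays. Cluster C (mm8, chr15:102756397-102864186) had 8 genes on the array by name. Hoxc4, known from lymphoid and stem cells, had signals of 133 and 148 and a difference of 0.21 with an error of 0.21, which it did not exceed. Hoxc6 had a wild-type signal of 11.4, not well above background, and 22.2 on the PAD4-deficient array, at least 1.30-fold higher there. An at-least fold sets the bright value against the dimmest level called well above background on the other array. Hoxc5 had signals of 15.1 and 16.2, and the 5 genes Hoxc8 to Hoxc13 present by name had 3.67 to 9.99 and 4.13 to 11.4.

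In cluster D (mm8, chr2:74470787-74565841), the gene above background on both arrays was Hoxd9, with 77.9 and 73.0 in signal and a difference of -0.04 with an error of 0.23. Hoxd3 had a wild-type signal of 17.3, just under the dimmest level called well above background, and 21.8 on the PAD4-deficient array, at least 1.27-fold higher. The log2 difference of this Hoxd3 probe, 0.38, did not exceed its scanner error of 0.44. The 2 genes detected in PAD4-deficient cells only were 5.41% of the HOX genes with unflagged spots on both arrays, against 2.28% of all genes, and both were near the background. The other 7 D genes had signals of 3.57 to 11.4 and 3.76 to 10.9.

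By paralogue position, the detected genes were most frequent at the anterior positions. Of 12 genes at positions 1 to 4, 8 were well above background on both arrays. Of 11 genes at positions 5 to 8, 5 were, and of 15 genes at positions 9 to 13, 3 were. Those 15 include Hoxa10, which could not count here because its wild-type spot was flagged. With PAD4-deficient cells Hoxa10 passed the background call, at a signal of 570. The count of 3 is therefore a minimum. Over all genes, 17021 of 27597 were measured on both arrays. Positions 1 to 4 lay near that share and the other groups under it. Both genes of position 2 were detected, and so were 3 of the 4 at position 9. No gene of position 8, 11, 12 or 13 was well above background on either array, which leaves their levels as bounds and not as absences.

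Between the genotypes the measured HOX genes were nearly level. Of the 16 genes measured on both arrays, 8 were higher and 8 lower in PAD4-deficient cells, with a median log2 difference of 0.0033 and a range of -0.43 to 0.31. Over all 17021 measured genes the median was 0.02, with the 5th to 95th percentile from -0.39 to 0.44. No measured HOX gene was 1.5-fold higher or lower, against 2.88% and 1.87% of all measured genes. None was 2-fold higher or lower, against 1.01% and 0.476%. With 16 genes, counts of 0 are near these shares. Past its own scanner error were 4 of 16 HOX genes (25%), Hoxa6, Hoxb2, Hoxb3 and Hoxb9, against 30.4% of all measured genes.

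**Figure D3:**
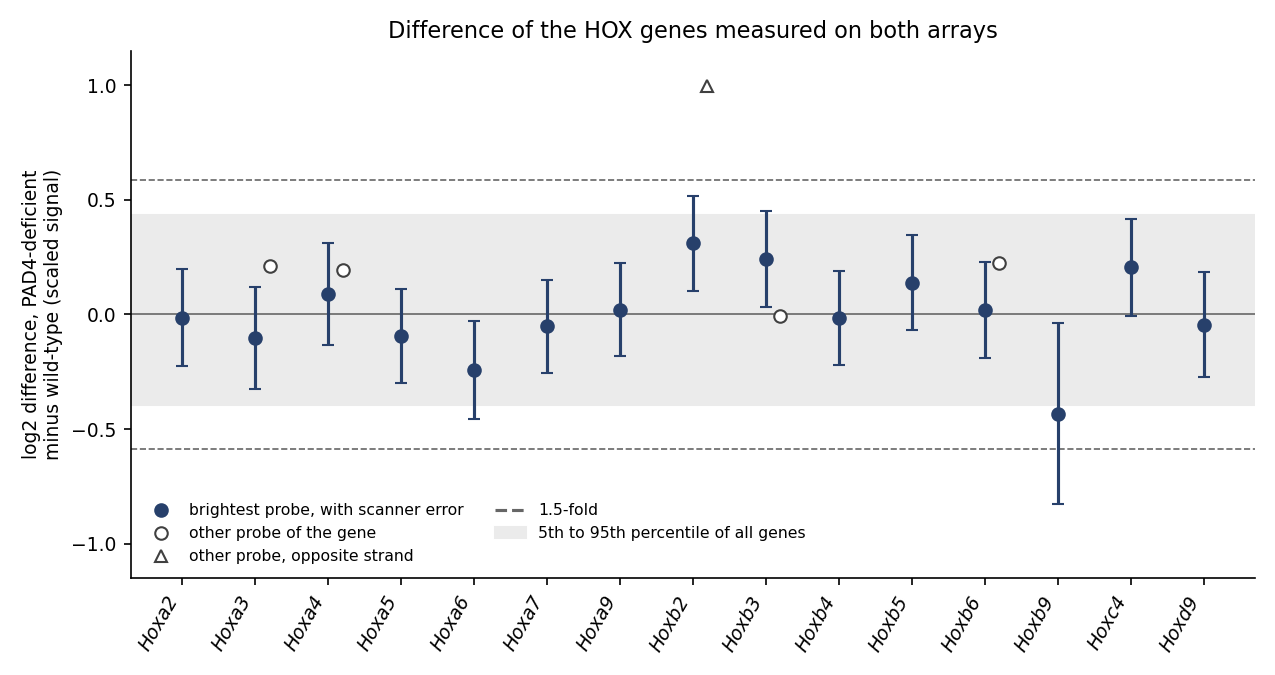
Log2 difference, PAD4-deficient minus wild-type, of the reported HOX genes that were measured on both arrays. Filled points are the brightest probe with its scanner error, open circles another measured probe of the gene and the open triangle a probe of the opposite strand. The dashed lines mark 1.5-fold and the grey band the 5th to 95th percentile of all genes. All brightest probes shown lie within 1.5-fold, and the opposite-strand probe of Hoxb2 lies at 0.996.

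For clusters A and B and for the groups of positions, the medians lay between -0.05 and 0.15. The median difference was -0.03 over 8 measured A genes and 0.08 over 6 measured B genes. It was 0.15 over the 8 measured genes of positions 1 to 4, -0.05 over the 5 of positions 5 to 8 and -0.04 over the 3 of positions 9 to 13. Quartiles of the 16 HOX genes were -0.06 and 0.16, and those of all measured genes -0.12 and 0.15.

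Of the 38 genes, 12 had 2 probes, and the second probe gave the same picture for some genes and not for others. Hoxa4 had a difference of 0.19 by its second probe with an error of 0.36. Hoxb6 had 0.23 by its second probe (signals of 162 and 183), which was past its error of 0.21. Hoxa3 turned from -0.10 to 0.21 (signals of 27.7 and 30.9), and Hoxb3 had -0.01 in place of 0.24. The second Hoxb9 probe was not well above background on either array and was brighter on the PAD4-deficient array, with signals of 12.8 and 17.3. The second Hoxd9 probe was at the software's floor on both arrays.

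Among the genes with both probes measured, the largest gap was at Hoxb2. Its dimmer probe (mm8, chr11:96166636-96166695) had signals of 49.3 (wild-type) and 94.9 (PAD4-deficient), a difference of 0.996 with an error of 0.24. By the file's coordinates this probe lies on the minus strand, opposite to the genes of cluster B and to the brighter Hoxb2 probe, although the file gives both the name Hoxb2. Of the 50 HOX probes it was the only one on the strand opposite to its cluster. Which transcript it reads was not tested.

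Other transcripts within the clusters were mostly below background. Of 9 probes inside the 4 clusters that carry other names, 1 was well above background on both arrays. It carries the name 2700086A05Rik, lies between Hoxa6 and Hoxa7 on their strand (mm8, chr6:52140288-52140347), and had signals of 156 and 173, a difference of 0.20 with an error of 0.21. The probe of 9530018H14Rik, next to Hoxa13, passed the background call in PAD4-deficient cells only, with signals of 11.2 and 20.7, at least 1.21-fold higher.

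Of the 24 genes that flank the clusters, 3 a side, 20 were measured, with a median difference of 0.08. Of these 20, 2 were 1.5-fold higher and 2 lower, against 2.88% and 1.87% of all measured genes. Evx2, a homeobox gene 13.7 kb beyond the Hoxd13 end of cluster D, was lower on the PAD4-deficient array. Its signals were 315 and 116, and its difference was -1.39 with an error of 0.21. The nearest HOX gene, Hoxd13, was not well above background on either array, and Evx1, the homologue beside cluster A, had a wild-type signal of 4.51 and was also not well above background on either array. Around cluster B, Snx11, a sorting nexin, had signals of 381 and 207 and differed by -0.83 with an error of 0.21. Skap1, an adaptor of T cells, was dim, with signals of 42.5 and 65.6, and differed by 0.68 with an error of 0.25. Calcoco2, an autophagy receptor, was also dim, with 48.4 and 72.3, and differed by 0.63 with an error of 0.24.

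By their brightest probes, the measured genes for cofactors, activators and repressors of HOX genes were all within 1.5-fold. Of all measured genes, 2.88% were 1.5-fold higher and 1.87% lower. A count of 0 among so few genes is near those shares. Of 9 genes for cofactors of the MEIS, PBX and PKNOX families, 8 were measured, with a median difference of -0.01 and none at 1.5-fold. Meis1 had signals of 1894 and 1975 and a difference of 0.11 with an error of 0.20. Its product is a partner with which HOX proteins bind DNA. By this brightest probe, the difference of Meis1 did not exceed its scanner error. A second Meis1 probe had signals of 610 and 771 and a difference of 0.39, past its error of 0.20. Meis2 passed the background call in PAD4-deficient cells only, with signals of 14.3 and 24.6.

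Of 20 genes for activators of HOX transcription, 17 were measured, with a median of -0.02 and none at 1.5-fold. Kmt2a had signals of 5094 and 5129 and a difference of 0.06 with an error of 0.20. The highest of the list was Kdm6a, an X-linked histone demethylase, with 0.51. The caudal genes Cdx2 and Cdx4 were not well above background, and Cdx1 passed in PAD4-deficient cells only, with signals of 3.63 and 20.0. Of 17 genes for polycomb and other repressors, 16 were measured, with a median of -0.07 and none at 1.5-fold. Ezh2, the methyltransferase of polycomb complex PRC2, differed by 0.23 and its relative Ezh1 by -0.41. Phc1, also on the repressor list, differed by -0.18 by its brightest probe. A dimmer Phc1 probe, with signals of 320 and 203, differed by -0.61 with an error of 0.21, which is past 1.5-fold. The other Phc1 probe differed by -0.05.

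Of 14 reported targets of HOXA9 and MEIS1, all were measured, with a median of -0.06. Id2, an inhibitor of basic helix-loop-helix factors, was higher in PAD4-deficient cells: its signals were 847 and 1344, and it differed by 0.72 with an error of 0.20. Flt3, a receptor of multipotent progenitors, was lower: its signals were 2439 and 1481, and it differed by -0.67 with an error of 0.20. These 2 genes moved in opposite directions, and the other 12 were within 1.5-fold by their brightest probes. Of all measured genes, 2.88% were 1.5-fold higher and 1.87% lower. Myb, of the 12, differed by 0.26 by its brightest probe and by 0.25 and 0.15 by 2 others. Its dimmest probe, with signals of 717 and 1130, differed by 0.71 with an error of 0.20, past 1.5-fold. Of 10 homeobox genes that flank HOX clusters or belong to the ParaHox and related groups, 4 were measured, and Evx2 was the 1 gene past 1.5-fold.

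**Figure D4:**
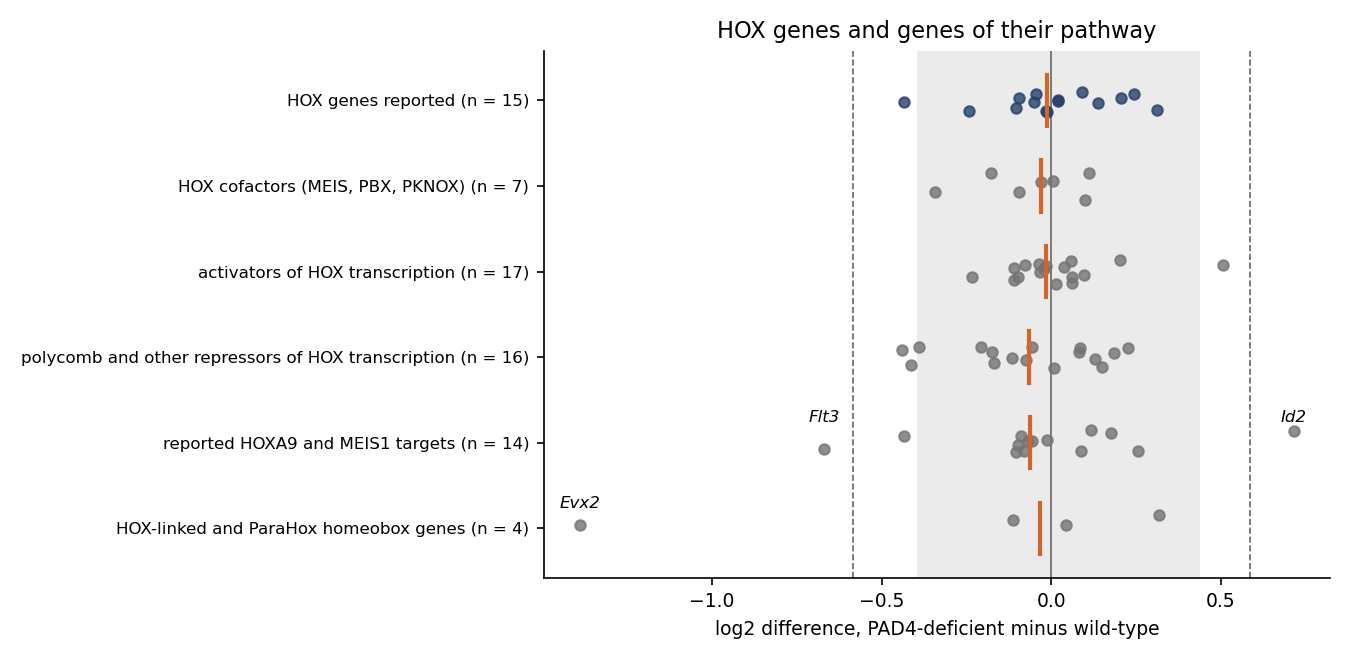
Log2 difference, PAD4-deficient minus wild-type, of measured HOX genes (blue) and of measured genes of 5 pathway lists (grey), with 1 point per gene; the vertical place within a row is random. Orange bars are medians of the points shown, dashed lines 1.5-fold and the grey band the 5th to 95th percentile of all genes. Id2, Flt3 and Evx2 lie outside 1.5-fold.

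Markers of the sorted cells and of other cell types did not all stay level beside these values. Of all measured genes, 2.88% were 1.5-fold higher and 1.87% lower. All 10 LSK and stem cell markers were measured, with a median of -0.12, 1 gene (Flt3) 1.5-fold lower and summed signals of 154175 and 137700. Median differences were 1.25 over 8 of 9 erythroid markers (5 genes 1.5-fold higher, summed signals 24018 and 24688), 0.58 over 8 neutrophil markers (3 higher, 99561 and 150827), 0.87 over 8 monocyte and dendritic cell markers (5 higher, 7008 and 12943) and 0.62 over 7 B and plasma cell markers (4 higher, 9789 and 14882). Of 8 T and NK cell markers, 5 were measured, with a median of -0.29, 1 higher and 1 lower, and summed signals of 3425 and 2723. Outside that median and those counts, Cd8a of cytotoxic T cells passed the background call in PAD4-deficient cells only, with signals of 9.74 and 75.5. Members of a list did not all move together. In the erythroid list, the 5 higher genes were Klf1, Epor, Car1, Rhd and Ermap. There, Car2 differed by 0.0006, Slc4a1 by 0.05 and Alas2 by -0.47. In the neutrophil list, the 3 higher genes were Elane, Ctsg and Ms4a3. Under 1.5-fold in that list were Mpo and Prtn3 (both 0.58), Ltf (0.19), Ngp (0.43) and Camp (0.42). Each summed signal given here holds every gene of its list, also those not measured on both arrays. Of 13 stromal and endothelial markers, 8 were measured, with a median of -0.12, 2 lower (Cxcl12 and Bgn) and summed signals of 4738 and 3925. A sum follows its brightest probes. Most of the erythroid sum was Car2 (22721 and 21958), and most of the LSK sum was Cd34 (95103 and 85480). Lck (3117 and 2288) made up most of the T and NK sum, and Pdgfrb (3057 and 2301) most of the stromal sum. Not well above background on either array were Cd3g and Ncr1 of the T and NK list. The same held for Lepr, Pdgfra, Col1a1, Col3a1 and Cdh5 of the stromal and endothelial list. Other members of these lists were well above background on both arrays. They were Cd3e, Cd4, Lck, Klrb1c and Prf1, and Cxcl12, Pdgfrb, Col1a2, Sparc, Bgn, Vcam1, Pecam1 and Kdr. The part of other cells in the HOX values was not tested.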

How the data were processed

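Gene expression was measured in sorted LSK cells on 1-colour (Cy3) Agilent arrays, 1 array of wild-type and 1 of PAD4-deficient cells. Per the file headers, both are of design 014868, were read with Feature Extraction 9.5.3.1 and give coordinates on mm8; the submitters' processing notes name version 9.5. The deposited scanner files hold each spot's intensity on a linear scale, background-subtracted and detrended by the authors' software, with an error estimate and quality flags. In other columns the deposited files hold the detrending factor and a floor value given in place of a signal at background. The deposited table of values has log2 units. Checked against the scanner files, it was the log2 of a probe's median processed signal minus 9.67 and 9.62 for all 41174 probes, with column medians of -3.59 and -3.53, so its scale, centring and direction were settled.

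The value of a probe was log2 of its processed signal over unflagged spots minus the array's 75th percentile over non-control probes. A gene took its brightest probe well above background on both arrays. Differences were PAD4-deficient minus wild-type, with the propagated scanner error. An at-least fold divided the bright value by the dim probe's value or, where higher, the lowest value called well above background on that array. Probes were named by the accession (24320), symbol (6304) or synonym (2425) in the RefSeq table of GRCm38.p6, and 8075 kept the file's name, as did the 50 HOX probes. Where a probe lies in an exon or UTR was not analysed here. Named were the HOX genes, list genes at 1.5-fold, Meis1, Kmt2a, Padi4, and cluster transcripts above background; other list and flanking genes were picked with their values in view. Some genes that this rule takes are not reported here, though counts and medians hold them. The HOX genes and the gene lists were chosen with earlier results of these data known. Counts past 1.5-fold and 2-fold describe these arrays only. The steps were tested on simulated data. Alternatives were normexp (limma 3.58.1, R 4.3.3) with an offset of 50 and without, quantile, median and loess scaling (window 0.3), the 75th percentile of detected probes, the deposited table, the mean over probes, looser filters and other detection rules. Flagged spots and the pixel median were added after seeing the data. Python 3.11.15 with numpy 2.4.6, pandas 2.3.3 and statsmodels 0.14.6 was used.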

Additional observations from a re-analysis of the deposited data

How the results depend on the processing

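Choices were changed alone, except that the pixel median also brought in flagged spots. Looser filters leave the measured genes' values as they are; under the other settings, 142 of 144 values of single HOX genes moved by less than their scanner error. The exceptions were Hoxb9, at -0.03 with normexp and an offset of 50, and Hoxb2, at 0.65 as the mean over its probes, which brings in the opposite-strand probe and puts 1 HOX gene 1.5-fold higher. With normexp and an offset of 50, Evx2 moved to -1.05. The deposited value table, and the processed signal with flagged spots included, each put 1 HOX gene, Hoxa10, 1.5-fold and 2-fold lower. The pixel median with flagged spots included put 1 gene 1.5-fold lower, Hoxb9 at -0.67, and not Hoxa10. Counting genes well above background on at least 1 array gave 1 gene 1.5-fold and 2-fold higher (Hoxc6). Without a filter, 37 HOX genes gave 6 at 1.5-fold higher, 2 lower, 4 at 2-fold higher and a median difference of 0.0842, where most added genes were not well above background. The median difference lay between -0.05 and 0.04 under all other alternatives, and its sign is not settled. Detection by the software's positive and significant call gave 25 HOX genes on the wild-type array, 29 on the PAD4-deficient array and 5 on 1 array only; all probes of a gene gave 14, 16 and 1. Including flagged spots and the pixel median were chosen after seeing the data. No scaling moved the median of all genes by over 0.1. The pathway lists kept their medians within their error. No paired analysis was possible because there was 1 array a group, and no replicate could be left out. Signals near background limit Hoxb9, Hoxc6 and Hoxd3 most.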
